A study of Mus musculus with 14 samples.

Results

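Mouse embryonic fibroblasts were set against mouse embryonic stem cells (ESCs) on Affymetrix expression arrays. The comparison used 3 of the 14 arrays of the series, chosen by their sample titles: 1 array of fibroblasts and 1 array of each of 2 ESC lines. The fibroblasts came from Nanog-GFP transgenic C57BL/6 embryos, were labelled as of mixed sex and were grown without leukemia inhibitory factor (LIF). Their sample title gives a stage of 12.5 dpc (days post coitum), and the series text gives 13.5 dpc. The Nanog-GFP ESCs were derived from blastocysts of Nanog-GFP transgenic mice and were male and C57BL/6. EBRTcH3 is an ESC line labelled as wild type, male and 129sv. Both ESC lines were grown with LIF and serum. Nanog-GFP mice carry a green fluorescent protein reporter of the Nanog gene. The labels do not say how many embryos were pooled, how long the fibroblasts were cultured, or whether the ESCs grew on feeder cells. The labels thus differ between the cell types in sex and in LIF, and for EBRTcH3 also in strain, which cannot be told apart from cell type. The other arrays held partial induced pluripotent stem cells (partial iPSCs), iPSCs made from them in 2i medium, and transduced partial iPSCs.

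Fibroblasts are the somatic cells from which iPSCs are usually made, and ESCs are the reference for the state that reprogramming aims at. Fibroblasts build and pull on the extracellular matrix: they secrete collagens and proteoglycans, crosslink them, and grip them through integrins tied to actin stress fibres. ESCs grow as tight epithelial colonies and keep their state through a network of transcription factors around Oct4 (Pou5f1), Sox2 and Nanog.

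Levels are given as log2 RMA signal, in which a difference of 1 is a 2-fold difference. A gene was counted as higher or lower in fibroblasts only if its fibroblast value lay at least 1 above, or at least 1 below, both ESC arrays. With 1 fibroblast array there is no replicate of that arm and no test was made, so each count describes these 3 arrays. The distance between the ESC lines is the only spread measured within an arm, and it includes line and strain. Probe sets differ in their response, so levels are compared between arrays and not between genes. A lower signal can come from fewer cells of a type or from less RNA per cell, which cannot be told apart in bulk RNA.

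Of 12642 genes kept after a filter on dim genes, 4052 (32.1%) were counted, 2116 (16.7%) as higher in fibroblasts and 1936 (15.3%) as lower. The counts of the gene lists below are to be read against these shares. The differences reached at least 4 on the log2 scale against both lines for 299 genes that were higher and for 129 that were lower. The ESC lines themselves stood at least 1 apart for 2052 genes (16.2%). Across kept genes the median absolute difference was 0.81 between fibroblasts and Nanog-GFP ESCs, 0.84 between fibroblasts and EBRTcH3, and 0.40 between the ESC lines. Pearson's r over the same genes was 0.66 and 0.64 for the fibroblast array against the ESC arrays and 0.92 between the ESC arrays. These arrays share a platform and a normalization, and the genes are not independent replicates. The genes nearest to the threshold were Gm11476 (1.0003) just inside and Mfsd11 (0.9987) just outside on the higher side, and Gspt2 (-1.0003) and Grb7 (-0.9996) on the lower side.

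**Figure D1:**
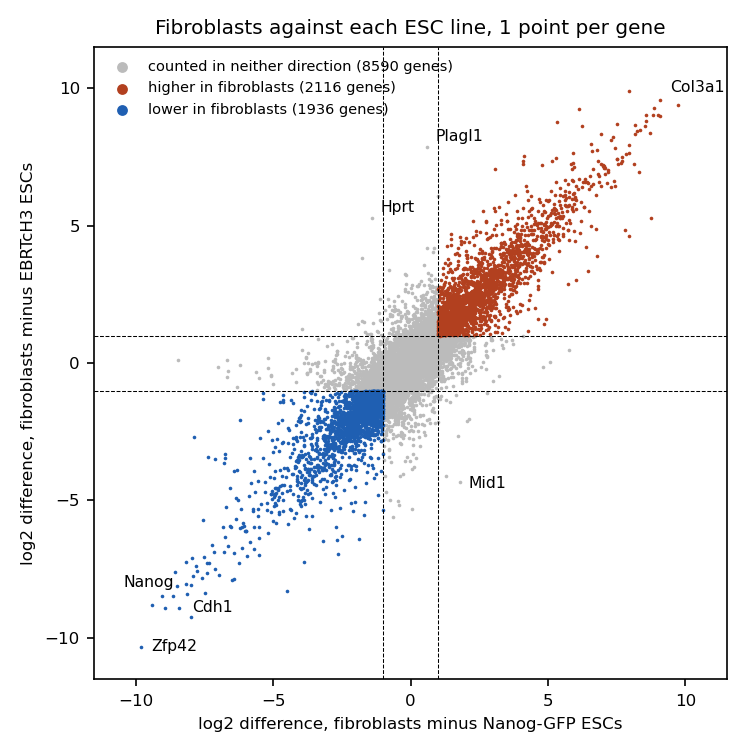
Log2 difference of the fibroblast array from the Nanog-GFP ESC array (horizontal axis) and from the EBRTcH3 ESC array (vertical axis), 1 point for each of the 12642 kept genes. Dashed lines mark a difference of 1 in each direction, the 2116 red genes lie beyond it on the higher side for both lines, the 1936 blue genes on the lower side, and Hprt, Mid1 and Plagl1 lie apart because the ESC lines differ in them.

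The labels were checked against 4 marker genes. Col1a2, a chain of type I collagen, read 14.52 in fibroblasts, 5.97 in Nanog-GFP ESCs and 5.70 in EBRTcH3. Tagln, an actin-binding protein of contractile cells, read 13.98, 7.73 and 5.34 in the same order. Nanog read 3.72, 13.12 and 12.54, and Zfp42 (Rex1), a marker of naive pluripotent cells, read 2.55, 12.37 and 12.89. All 4 markers went with the labels, and the ESC lines differed in Tagln by 2.39 and in the other 3 by at most 0.58. On the 4 arrays of untreated partial iPSCs and 2i iPSCs, Tagln read 7.35 to 7.76 and Col1a2 read 10.62 to 12.50.

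The sex label was checked with X and Y transcripts. Xist, the RNA that coats the inactive X chromosome of female cells, had 3 probe sets. They read 3.03, 3.29 and 5.20 in the fibroblasts labelled as mixed, 3.44, 3.20 and 8.42 in the male Nanog-GFP ESCs, and 3.53, 3.20 and 9.03 in the male EBRTcH3 ESCs. The female untreated 5C5 partial iPSCs read 11.31, 9.95 and 13.49 on the same probe sets. The untreated 2B1 partial iPSCs, also labelled as female, read 2.98, 3.27 and 5.44, near the fibroblast values. Low Xist was therefore found on an array labelled as female as well. Fibroblast Xist was thus below both male ESC arrays on 2 probe sets and within 0.09 of both on the remaining one. Only the probe set at 5.20 against 8.42 and 9.03 differed above background. On the other probe sets all 3 compared arrays read below their 25th percentiles (3.89), where signal is close to background. Eif2s3y, a Y-linked translation factor gene, read 9.22, 9.34 and 10.21 in fibroblasts, Nanog-GFP ESCs and EBRTcH3. Uty, another Y-linked gene, read 4.06, 5.17 and 5.91 on the probe set used and was counted as lower. On the probe set brightest over the 3 arrays it read 5.94, 6.28 and 7.80. The partial and 2i iPSC arrays labelled as female read 2.74 to 2.95 for Eif2s3y and 2.52 to 2.97 for that probe set of Uty. The share of female cells in the fibroblast culture was not tested.

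Sequence can be set beside expression for some of the genes that the comparison turns on. RefSeq promoter windows (build GRCm38.p6, 250 bases before to 50 after the start site) were searched on both strands with 4 motifs. They were TTTGCAT, the core of the octamer bound by Oct4, the composite Oct4-Sox2 motif, which joins it to a Sox site, the CArG box, which serum response factor (SRF) binds, and CATTCC, the site of TEAD factors that work with YAP. TTTGCAT is part of the composite motif. A match is a description of letters, not evidence of binding. Nanog and Zfp42 are shown because they lay furthest apart between the cell types among the ESC markers that hold the octamer core, with the match in capitals and the strand of the gene 5′ to 3′. The windows are chr6:122707374-122707460 on the plus strand for Nanog and chr8:43307148-43307234 on the minus strand for Zfp42.
Nanog: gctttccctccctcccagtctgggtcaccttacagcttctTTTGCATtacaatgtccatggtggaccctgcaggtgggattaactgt
Zfp42: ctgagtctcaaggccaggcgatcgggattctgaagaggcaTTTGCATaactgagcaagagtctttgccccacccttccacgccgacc
In Nanog the match begins 75 bases before the start site and runs on into the Sox site. Of 27025 genes with a promoter window, 1 (0.00370%), Nanog itself, held the composite motif in the exact form searched, and 1416 (5.24%) held TTTGCAT. Other forms of the composite motif and bases outside the windows were not searched. The count of 1 thus holds for that exact form only. Of the kept genes of the core pluripotency list with a window, 2 of 12 (16.7%) held TTTGCAT, namely Nanog and Sox2, and of the naive list 1 of 13 (7.69%). The shares were 4.17% of all kept genes with a window (425 of 10187) and 4.15% of genes counted as higher (69 of 1661). Among genes counted as lower the share was 4.55% (71 of 1559), so TTTGCAT was about as frequent in both directions.

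The CArG box and the TEAD site were set beside the contractile genes. The CArG box was searched as CCWWWWWWGG, with W for A or T. Other forms, and sites outside the windows, were not counted. Of 23 kept genes of the contractile list 20 had a window, and Tagln, Actg2 and Csrp2 did not. Vcl (vinculin), Myl9 (a myosin light chain), Cnn2 (calponin 2) and Fhl2 (a LIM protein of focal adhesions) held a CArG box. All 4 were higher in fibroblasts, but so were 21 of the 23 kept members of the list. Ankrd1, Axl and Ccn1, genes much used as readouts of YAP, are shown with the TEAD site, which is printed as it reads on the strand of the gene. The windows are chr14:20929148-20929220 (plus) for Vcl, chr2:156775263-156775352 (plus) for Myl9, chr10:79988504-79988593 (plus) for Cnn2, chr1:43196808-43196897 (minus) for Fhl2, chr19:36119922-36120094 (minus) for Ankrd1, chr7:25788921-25788983 (minus) for Axl and chr3:145650043-145650128 (minus) for Ccn1.
Vcl: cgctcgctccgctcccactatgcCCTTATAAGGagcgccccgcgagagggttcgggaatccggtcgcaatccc
Myl9: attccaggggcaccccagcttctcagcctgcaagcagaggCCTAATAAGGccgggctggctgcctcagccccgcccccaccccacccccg
Cnn2: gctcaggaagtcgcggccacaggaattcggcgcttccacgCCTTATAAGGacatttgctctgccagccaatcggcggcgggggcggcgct
Fhl2: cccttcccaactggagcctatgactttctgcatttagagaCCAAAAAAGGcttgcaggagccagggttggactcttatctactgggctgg
Ankrd1: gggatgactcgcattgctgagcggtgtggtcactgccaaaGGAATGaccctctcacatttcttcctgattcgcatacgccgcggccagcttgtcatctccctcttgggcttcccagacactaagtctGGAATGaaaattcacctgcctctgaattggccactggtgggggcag
Axl: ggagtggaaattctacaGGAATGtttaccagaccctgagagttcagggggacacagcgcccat
Ccn1: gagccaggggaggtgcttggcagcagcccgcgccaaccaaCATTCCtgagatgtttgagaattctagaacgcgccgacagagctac
A CArG box lay in the windows of 4 of 20 contractile genes, against 488 of 27025 genes (1.81%) and 168 of 10187 kept genes (1.65%). It lay in 41 of 1661 genes counted as higher (2.47%) and 17 of 1559 counted as lower (1.09%). CATTCC lay in 11 of 15 genes of the SRF and YAP list (73.3%), against 4481 of 27025 (16.6%) and 1487 of 10187 kept genes (14.6%). It lay in 303 of 1661 genes counted as higher (18.2%) and 228 of 1559 counted as lower (14.6%). It also lay in 9 of 20 contractile genes (45.0%). The SRF and YAP list was put together from regulators and targets of these factors, so its share of TEAD sites is not independent support. The contractile list holds genes known as SRF targets, so its share of CArG boxes is not independent support either. Genes of the SRF and YAP list with CATTCC included Mrtfb, Yap1, Tead3, Amotl2 and Ajuba, which were counted in neither direction. Genes with several start sites have several windows and more chances of a match. Counted by window, a CArG box lay in 5 of 25 contractile windows against 535 of 32851 in all, and CATTCC in 13 of 22 windows of the SRF and YAP list against 4817 of 32851.

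The genes furthest above both ESC lines were mostly genes of the matrix and of cell adhesion. Col3a1, the chain of type III collagen, read 13.37 in fibroblasts, 3.63 in Nanog-GFP ESCs and 3.98 in EBRTcH3, so that the smaller of its differences was 9.39. Cavin2, a coat protein of caveolae, read 12.40, 3.31 and 2.83. Cd44, a receptor for hyaluronan, read 11.93 against 2.93 and 2.92. The ESC values of these genes lay close together and far from the fibroblast value. Cdh11, a cadherin of mesenchymal cells, read 12.00 against 2.91 and 3.00. S100a4, a calcium-binding protein of fibroblasts, read 14.10 against 5.28 and 5.07. The other genes of the 15 were Bgn, Postn, Col1a2, Lox, Tnc, Prrx1, Thbs1, the serine protease Prss23, the membrane protein Tm4sf1 and Col5a2, with smaller differences of 8.86 down to 7.95. For 5 of these 15 genes both ESC values lay below the 25th percentile of their arrays (3.89), where signal is close to background, so the sizes of such differences depend on the background.

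**Figure D2:**
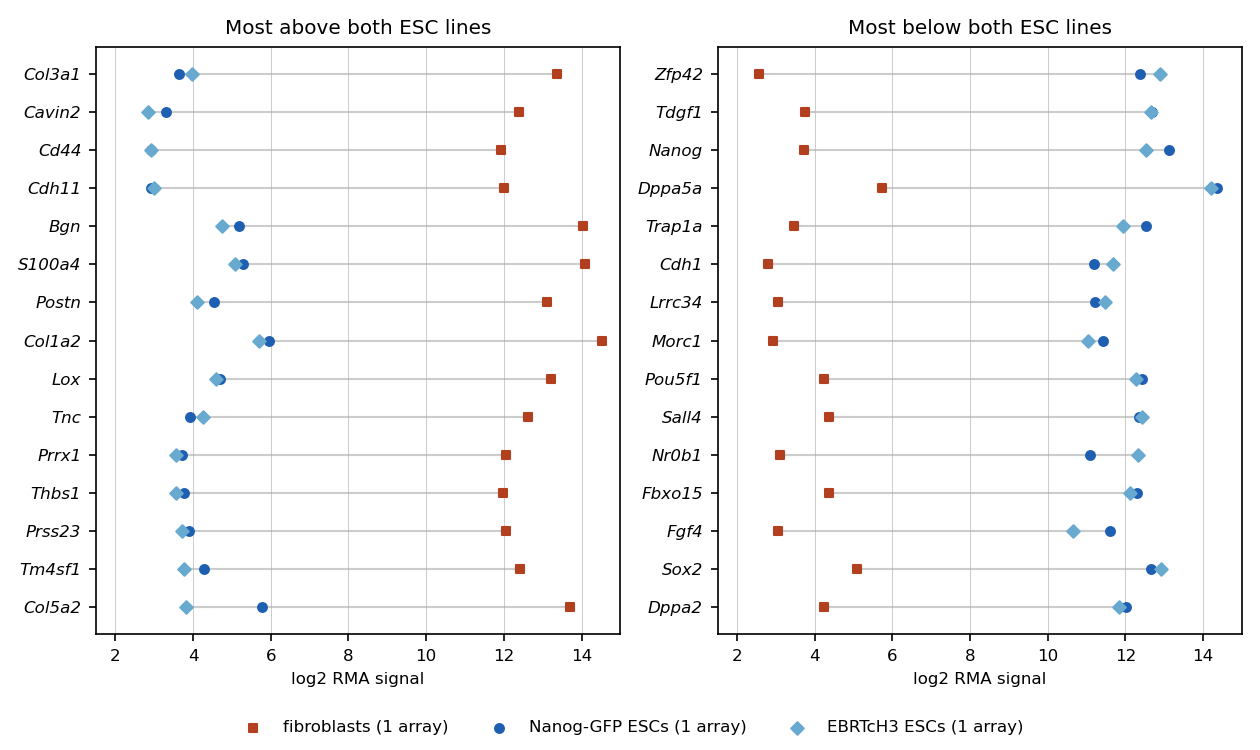
Log2 RMA signal (horizontal axis) of the 15 genes furthest above and the 15 furthest below both ESC lines, with 1 square for the fibroblast array, 1 circle for the Nanog-GFP ESC array and 1 diamond for the EBRTcH3 array. In every row the ESC symbols lie together, at most 1.94 apart, and the fibroblast symbol lies at least 7.58 away.

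Collagens were nearly all higher in fibroblasts. Of 18 listed genes 17 were kept, 16 were higher and 1 was lower, with a median difference from the ESC mean of 5.83, against -0.10 over all kept genes. Col1a1, the partner of Col1a2 in type I collagen, read 12.73 in fibroblasts, 5.20 in Nanog-GFP ESCs and 4.01 in EBRTcH3. Col5a2, which sets the width of collagen fibrils, read 13.71, 5.77 and 3.82. In the basement membrane collagen Col4a1 the ESC lines stood apart, at 9.62 and 5.60 against 12.68 in fibroblasts. Its partner Col4a2 read 11.95 in fibroblasts, 7.82 and 4.42. The exception was Col18a1, a basement membrane collagen, at 8.70 in fibroblasts against 10.51 and 10.82.

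Matrix glycoproteins and proteoglycans had 19 of 23 kept genes higher and 1 lower, with a median of 3.94. Bgn (biglycan) read 14.03 against 5.17 and 4.74, and Postn (periostin) read 13.11 against 4.53 and 4.10. Dcn (decorin), which binds collagen fibrils, read 11.13 against 3.97 and 4.57. Sparc, a collagen-binding protein, was at 13.42 in fibroblasts and differed between the ESC lines, with 11.95 in Nanog-GFP ESCs and 8.73 in EBRTcH3. Fn1 (fibronectin) was high on all 3 arrays, at 13.39, 11.88 and 12.85, and was counted in neither direction. Nid2, a basement membrane protein like Col18a1, was the member counted as lower, at 7.90 against 10.70 and 10.32.

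Matrix proteases, their inhibitors and crosslinking enzymes had 25 of 26 kept genes higher and 0 lower, with a median of 4.01. Lox, the lysyl oxidase that crosslinks collagen and elastin, read 13.23 against 4.70 and 4.59. Its relative Loxl1 read 12.12 against 5.07 and 5.04. Both ESC lines were low for these enzymes. The metalloproteinase inhibitors Timp2 and Timp3 read 13.65 and 12.08 in fibroblasts, against 6.73 and 5.24 in Nanog-GFP ESCs and 5.33 and 5.19 in EBRTcH3. Mmp14, a membrane-bound collagenase, read 10.95 against 6.77 and 6.29, and Mmp2, which it activates, read 11.33 against 7.66 and 6.91. Serpinh1 (Hsp47), the chaperone of procollagen, read 12.88 in fibroblasts and was also well above the array medians in ESCs, at 10.64 and 9.40. Mmp11 was the member counted in neither direction, at 8.83, 8.24 and 8.61.

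Contractile and actin-binding genes had 21 of 23 kept genes higher and 0 lower, with a median of 2.95. Actg2, a smooth muscle actin, read 11.56 in fibroblasts against 4.36 and 4.54. Cnn1 (calponin 1) read 11.14 against 4.19 and 4.71. For the smooth muscle genes Acta2, Myl9 and Tagln the ESC lines stood apart, with Nanog-GFP ESCs at 9.03, 6.96 and 7.73 and EBRTcH3 at 5.60, 3.81 and 5.34. Fibroblasts read 14.36, 13.08 and 13.98 for these. Zyx, a focal adhesion protein, read 11.43 against 6.22 and 6.76. The 4 genes printed with a CArG box had smaller differences of 4.56 (Fhl2), 3.62 (Cnn2), 2.66 (Vcl) and 6.12 (Myl9). Myh11, the myosin heavy chain of mature smooth muscle, did not pass the filter on dim genes.

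Of the regulators of SRF and YAP/TEAD and their target genes, 9 of 18 kept genes were higher and 0 lower, with a median of 1.20. Among all kept genes 16.7% were higher and 15.3% lower. With the probe set brightest over the 3 arrays the median was 0.79 and 8 were higher, and with the median over probe sets it was 0.87 with 7 of 17 higher. The targets Ankrd1 and Axl stood furthest apart. Ankrd1 read 10.09 against 3.23 and 3.28, and Axl, a receptor tyrosine kinase, read 11.41 against 4.78 and 4.33. Ccn2 (CTGF) read 13.23 against 9.51 and 9.36, and Ccn1 (CYR61) read 11.51 against 8.49 and 5.87. Crim1 read 8.45 against 4.47 and 4.53, and Lats2, a kinase that inhibits YAP, read 8.82 against 4.39 and 5.33. Of the factors themselves, Yap1 read 11.11, 10.79 and 10.66 and Srf read 8.58, 7.85 and 7.28, both counted in neither direction. Wwtr1 (TAZ), the relative of YAP, read 10.90 against 9.38 and 9.53, and Mrtfa, a coactivator of SRF, read 9.65 against 7.79 and 7.58. The DNA-binding partners Tead1 to Tead4 were counted in neither direction.

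Mesenchymal transcription factors had 20 of 26 kept genes higher and 0 lower, with a median of 4.12. Without the filter on dim genes 22 of 30 were higher with a median of 3.24. With the median over probe sets the list median was 3.19. Prrx1, a homeobox factor of limb and craniofacial mesenchyme, read 12.05 in fibroblasts against 3.71 and 3.57. Twist2 read 10.94 against 5.07 and 5.32, and its relative Twist1 read 9.57 against 5.33 and 5.44. Snai2 (Slug), a repressor of E-cadherin, read 11.40 against 6.19 and 5.96, and Snai1 read 7.40 against 4.61 and 5.65. Zeb2 read 7.33 against 4.12 and 4.59, whereas Zeb1 read 10.57 against 9.79 and 8.52 and was counted in neither direction. Developmental mesenchyme factors were among the others, with Tbx15 at 9.59 against 4.67 and 4.97 and Osr1 at 8.80 against 4.77 and 4.52.

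Surface receptors of mesenchymal cells had 20 of 22 kept genes higher and 0 lower, with a median of 4.50, or 2.99 with the median over probe sets. Thy1, a surface marker of fibroblasts, read 12.61 against 5.22 and 5.97. The receptors of platelet-derived growth factor read 11.15 (Pdgfra) and 12.22 (Pdgfrb) in fibroblasts, against 5.03 and 6.36 in Nanog-GFP ESCs and 4.81 and 5.18 in EBRTcH3. Cav1, the main caveolin, read 12.30 against 4.45 and 4.70, and thus went with Cavin2. Integrin chains differed less: Itgb1 read 11.88 against 8.94 and 8.64, and Itgav read 12.51 against 10.39 and 10.33.

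Growth factor signalling was read from ligands, receptors, binding proteins and antagonists. Of 34 kept genes of the TGF-beta, IGF and Wnt list, 24 were higher and 1 was lower, with a median of 3.00. Igf2, an imprinted growth factor of the embryo, read 13.49 in fibroblasts against 5.97 and 6.08. Tgfb3 read 11.25 against 3.55 and 3.90, and the receptor Tgfbr2 read 11.07 against 4.80 and 4.47. Inhba, the subunit of activin A, read 12.32 against 5.45 and 5.72. The Wnt ligand Wnt5a read 9.91 against 3.79 and 3.22, and the Wnt antagonist Dkk2 read 10.32 against 2.89 and 2.51. The exception was Igfbp2, an IGF binding protein, at 8.99 in fibroblasts against 12.80 and 11.21.

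Hox genes give cells an address along the body axis and the limb, with low numbers at the head end and high numbers at the tail or the tip. Of 39 genes, 33 had a probe set of their own, 23 passed the filter, 20 were higher in fibroblasts and 0 were lower, with a median of 2.54. Some of them, such as Hoxc8 and Hoxc10, passed the filter through the fibroblast array alone. With the filter on dim genes left out, 21 of 33 were higher and 0 lower, with a median of 2.21. Hoxc8 read 9.49 against 3.07 and 2.92, and Hoxc10 read 9.24 against 3.82 and 3.48. From the Hoxa cluster, Hoxa10 read 8.32 against 4.19 and 4.23, and Hoxa11 read 8.83 against 4.55 and 4.49. Its neighbour Hoxa13 was dim, at 3.89, 3.83 and 3.62. Hoxd13, the last gene of its cluster, read 8.29 against 5.80 and 4.64, while its neighbours Hoxd11 and Hoxd12 did not pass the filter. The genes counted as higher ran from Hoxb2, at 8.24 against 5.90 and 5.89, to Hoxb13 and Hoxd13. Hoxa9 read 9.35 against 4.63 and 3.49 on the probe set used, whereas its other probe set had a smaller difference of 0.60. Hoxc6 was counted in neither direction on the probe set used (6.67, 6.28 and 6.11), but its other 2 probe sets were higher in fibroblasts.

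**Figure D3:**
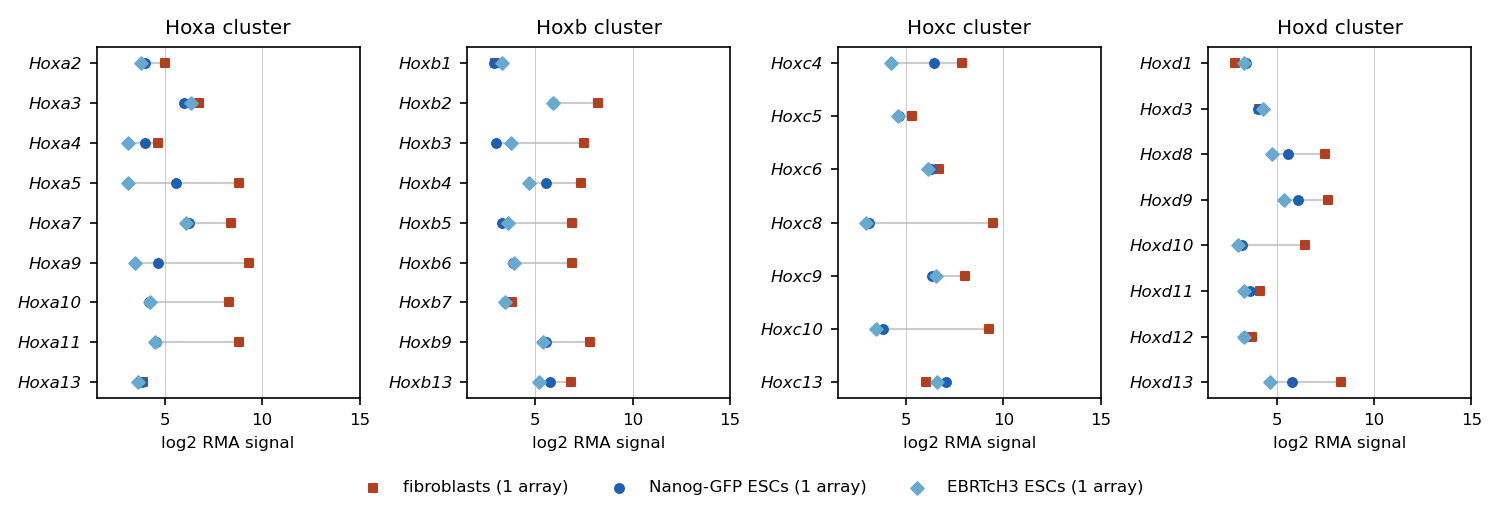
Log2 RMA signal (horizontal axis) of the 33 Hox genes with a probe set of their own, by cluster and in order of paralog number from top to bottom, with 1 square for the fibroblast array, 1 circle for the Nanog-GFP ESC array and 1 diamond for the EBRTcH3 array. Squares stand to the right of the ESC symbols for the 20 genes counted as higher, and Hoxc13 is the one kept gene whose square stands to the left of both.

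Pluripotency genes made up the other end of the comparison. Of 18 kept genes of the core and general list, 18 were lower in fibroblasts, with a median of -7.25. Pou5f1 read 4.23 in fibroblasts, 12.42 in Nanog-GFP ESCs and 12.27 in EBRTcH3. Sox2 read 5.08, 12.66 and 12.91, and Sall4, a zinc finger partner of both, read 4.36, 12.35 and 12.44. Tdgf1 (Cripto), a coreceptor of Nodal, read 3.74, 12.69 and 12.67. The ESC lines lay within 0.24 of each other for these 4 genes. Zfp281 stood least apart, at 8.79 against 10.21 and 10.43.

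Of 20 kept genes of the naive list, 19 were lower, 0 higher and the median was -4.45. Nr0b1 (Dax1) read 3.10 against 11.08 and 12.33, Fbxo15 read 4.37 against 12.30 and 12.11, and Fgf4, an ESC growth factor, read 3.05 against 11.61 and 10.64. Tfcp2l1 read 4.02 against 11.41 and 11.65. Some members had clear signal in fibroblasts although they were lower there: Klf2 read 9.01 against 11.75 and 12.97, Klf5 read 8.95 against 11.84 and 13.02, and Tbx3 read 7.93 against 10.81 and 10.87. Klf4, a factor used to make iPSCs, was the exception. The probe set used, the brighter of its pair over all 14 arrays, read 10.61, 10.85 and 11.21. The other, which was brighter on the ESC arrays, read 10.57, 11.53 and 11.89.

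The other genes furthest below both lines were Dppa5a, Trap1a, Cdh1, Lrrc34, Morc1 and Dppa2, with differences nearest to 0 of -8.48 to -7.58. Trap1a, a tumour antigen gene, read 3.46 against 12.52 and 11.93. For 9 of the 15 furthest genes the fibroblast value lay below the 25th percentile of its array (3.89), so that their order depends on the background.

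Genes of the primed epiblast and of Nodal signalling were also lower in fibroblasts, 8 of 10 kept genes with 0 higher and a median of -3.56. Nodal, the ligand, read 5.07 against 10.82 and 10.37. Its target and inhibitor Lefty1 read 6.70 against 9.59 and 10.40. Otx2 read 2.89 against 8.08 and 9.07, and Zic5 read 3.72 against 9.91 and 9.73.

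Epithelial genes divided. Of 27 kept genes 14 were lower, 2 were higher and the median was -1.95. Cdh1 (E-cadherin), the adhesion molecule of epithelia and ESC colonies, read 2.79 in fibroblasts against 11.20 and 11.69. Epcam read 4.61 against 10.29 and 11.37, and the desmosomal cadherin Dsg2 read 4.72 against 10.79 and 10.64. Cdh2 (N-cadherin), which mesenchymal cells use instead, read 10.56 against 7.60 and 8.55. The members counted as higher were simple-epithelium keratins, Krt19 at 9.08 against 5.63 and 4.76 and Krt18 at 8.57 against 7.52 and 6.98. Krt18 was below the threshold with arrays centred on their medians (0.98). The ESC lines differed in this list, with EBRTcH3 at least 1 above the Nanog-GFP line for 10 of 27 genes, against 7.02% of all kept genes. Esrp1, an epithelial splicing factor, read 3.71 in fibroblasts, 5.58 in Nanog-GFP ESCs and 10.12 in EBRTcH3.

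Germline genes were low in fibroblasts and uneven between the ESC lines. Of 20 kept genes 15 were lower and 0 higher, with a median of -3.32. Without the filter on dim genes 15 of 25 were lower, with a median of -2.53. Tex19.1 read 3.84 against 10.56 and 9.08, and Hormad1, a meiotic chromosome protein, read 2.80 against 9.39 and 7.36. Dazl, an RNA-binding protein of germ cells, read 3.46 against 10.25 and 7.08. Nanog-GFP ESCs were at least 1 above EBRTcH3 for 11 of the 20 genes and at least 1 below for 3, against 9.22% and 7.02% of all kept genes. Sycp3, a part of the synaptonemal complex, was among the latter, at 7.98 and 11.75 against 3.47 in fibroblasts.

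The list of DNA methylation and demethylation held enzymes together with cofactors and readers. Of its 10 kept genes 7 were lower in fibroblasts and 1 was higher, with a median of -2.70. The de novo methyltransferase Dnmt3b read 5.49 against 11.24 and 10.89, and its cofactor Dnmt3l read 5.14 against 10.67 and 12.12. Tet1, which oxidises methylcytosine, read 4.51 against 11.85 and 11.79, and Tet2 read 7.41 against 10.35 and 10.48. The maintenance pair differed less, with Dnmt1 at 10.35 against 11.70 and 11.49 and Uhrf1 at 10.04 against 12.62 and 12.23. Dnmt3a was counted in neither direction, at 7.93, 9.86 and 8.61. The higher member was Mbd2, a reader of methylated DNA, at 9.29 against 8.07 and 7.35, and the median over its probe sets gave 0.68.

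Of the Polycomb complexes 11 of 25 kept genes were lower, 1 was higher and the median was -0.77. Over all kept genes 15.3% were lower and 16.7% higher. The enzyme Ezh2 read 9.52 against 11.57 and 11.32, and its core partners Suz12 and Eed read 9.72 and 10.10 in fibroblasts, 11.64 and 12.03 in Nanog-GFP ESCs and 11.55 and 12.71 in EBRTcH3. Accessory subunits of Polycomb complex 2 were uneven. Epop read 4.0012 against 9.07 and 9.42, Mtf2 read 8.78 against 12.65 and 12.50, and Jarid2 read 8.20 against 11.73 and 12.60. Phf19 (6.24, 6.98 and 6.39), Aebp2 (10.24, 11.01 and 10.11) and Phf1 (7.84, 6.79 and 7.36) were counted in neither direction. Cbx7, the chromodomain subunit of Polycomb complex 1 in ESCs, read 5.55 against 9.92 and 10.87, but the median over its 3 probe sets gave -0.51. Phc2, a Polycomb complex 1 subunit, was higher at 10.94 against 8.60 and 8.41, while its relative Phc1 read 8.79 against 12.17 and 11.99.

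Cell cycle genes showed both directions. Of 38 kept genes 17 were lower, 3 were higher and the median was -0.96, against 15.3% lower and 16.7% higher over all kept genes. The higher members were cyclins and a kinase of early G1: Ccnd2 at 13.53 against 6.97 and 5.55, Ccnd1 at 11.12 against 9.76 and 9.33, and Cdk6 at 10.15 against 5.87 and 8.99. All 7 probe sets of Ccnd2 were higher in fibroblasts. Replication genes were lower, with Mcm2 at 9.74 against 11.65 and 11.64, Mcm5 at 10.61 against 12.28 and 12.39, and the licensing factor Cdt1 at 10.56 against 12.54 and 12.73. Mybl2, a cell cycle transcription factor, read 7.42 against 11.54 and 11.52. Mki67, the gene of the Ki-67 proliferation antigen, was counted in neither direction, at 11.13, 11.23 and 11.30.

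**Figure D4:**
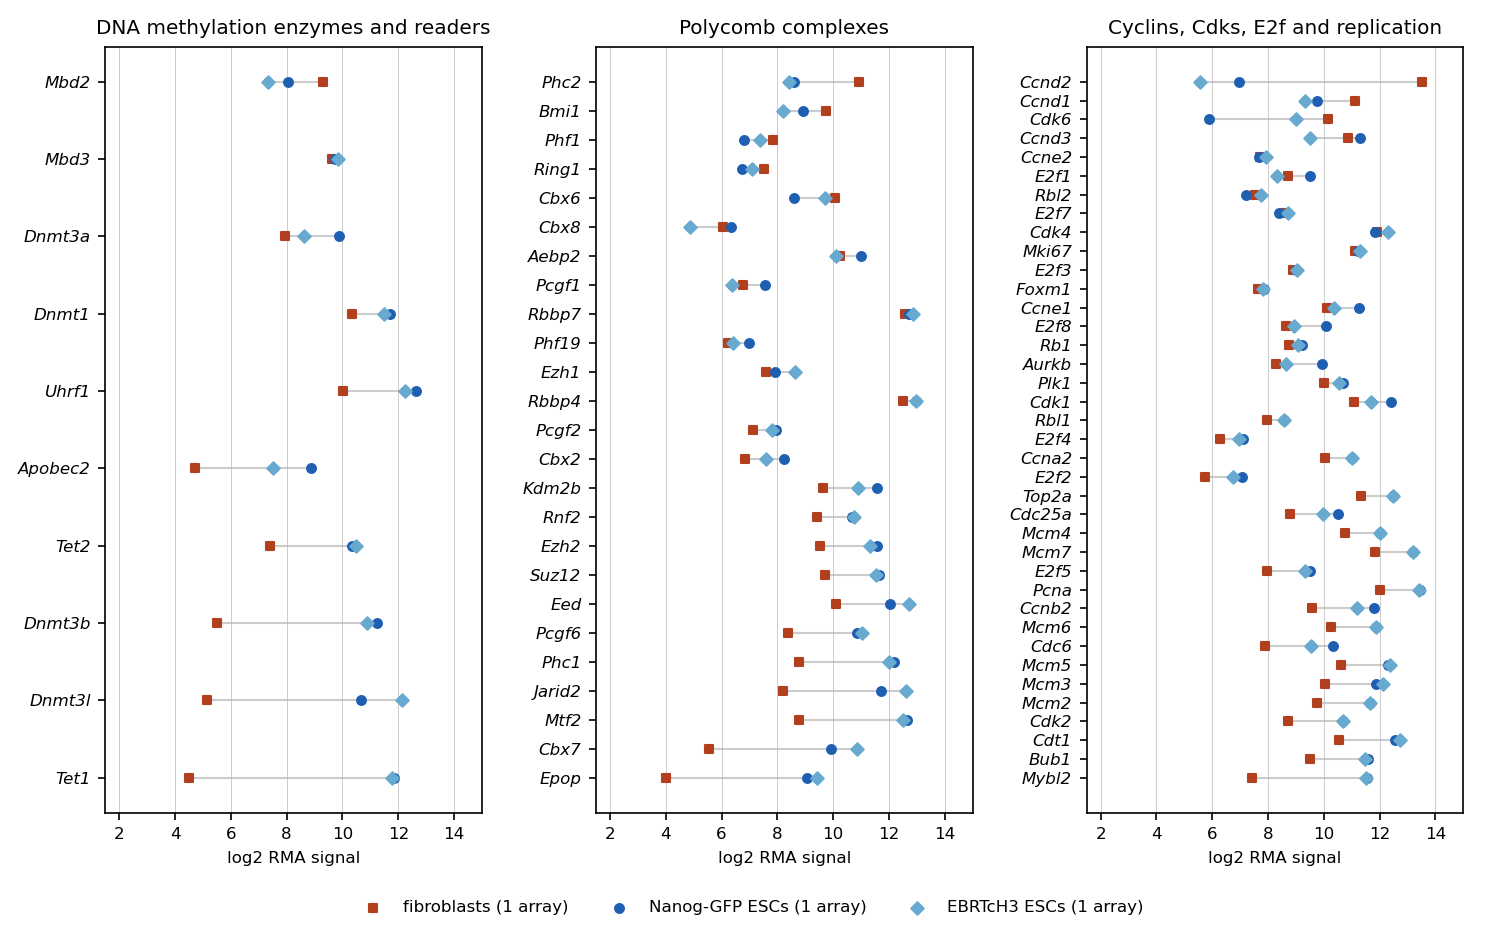
Log2 RMA signal (horizontal axis) of the kept genes of the DNA methylation, Polycomb and cell cycle lists, ordered by the smaller difference from the ESC lines, with 1 square for the fibroblast array, 1 circle for the Nanog-GFP ESC array and 1 diamond for the EBRTcH3 array. Tet1, Epop and Mybl2 at the foot of the panels stand furthest below the ESC lines, and Mbd2, Phc2 and Ccnd2 at the top stand above them.

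Inhibitors of the cycle and p53 targets had 7 of 22 kept genes higher, 3 lower and a median of 0.13. Over all kept genes 16.7% were higher and 15.3% lower, so lower members were about as frequent here as among all genes. Against EBRTcH3 alone the median was 0.59, and against the Nanog-GFP line alone 6 were lower. Cdkn2b (p15) read 10.20 against 6.67 and 5.34, Cdkn1a (p21) read 13.12 against 10.86 and 10.28, and Cdkn2a, which encodes p16 and p19Arf, read 6.91 against 4.70 and 4.65. Untreated partial iPSCs read 8.49 and 8.34 for Cdkn2a. The lower members were Lmnb1, a nuclear lamin, at 8.26 against 10.54 and 10.19, Gadd45a at 8.48 against 10.02 and 10.99, and Trp53inp1 at 11.31 against 12.43 and 12.62. The median over the probe sets of Trp53inp1 gave -0.72.

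Imprinted genes, expressed from 1 parental allele, had 10 of 23 kept genes higher, 3 lower and a median of 1.97. The shares over all kept genes were 16.7% higher and 15.3% lower, so lower members were about as frequent as among all genes. Besides Igf2 and Dcn, the higher members included Dlk1 at 8.54 against 5.97 and 4.96 and Ndn at 12.05 against 8.87 and 8.50. Phlda2, a placental growth regulator, was lower at 5.29 against 8.89 and 10.84. Plagl1 read 11.06 in fibroblasts, 10.46 in Nanog-GFP ESCs and 3.20 in EBRTcH3. Meg3, a noncoding RNA, read 12.77, 11.26 and 12.46 on the probe set used, and 4 of its 11 probe sets were higher in fibroblasts than in both lines.

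The Lin28 axis held 1 member that was higher and 5 that were lower among 14 kept genes, against 16.7% and 15.3% over all kept genes. Its median was -0.32, or -0.75 with the probe set brightest over the 3 arrays. Lin28a, which blocks let-7 maturation, read 3.17 in fibroblasts against 9.67 and 11.05. Trim71, a let-7 target, read 4.06 against 11.18 and 11.57. Hmga2, another let-7 target and a chromatin protein, went the other way, at 13.00 against 9.54 and 7.57. Igf2bp1 read 8.93 against 11.79 and 11.71, and its relative Igf2bp3 was counted in neither direction, at 10.26, 10.44 and 9.78.

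Ccr4-Not is the deadenylase complex that the series was built around. The median over 15 kept genes of the complex and its partners was -0.60. Of these, 0 were higher and 1 was lower, against 16.7% and 15.3% over all kept genes. The lower gene was Trim28, a corepressor listed as a partner, at 12.09 against 13.17 and 13.19, and each of the 10 kept Cnot genes was counted in neither direction. Against EBRTcH3 alone 2 genes of the list were higher and 3 lower, and against the Nanog-GFP line alone 0 and 4. Of the subunits expressed in partial iPSCs elsewhere in the series, Cnot2 read 9.41, 10.19 and 10.92 and Cnot3 read 9.51, 10.25 and 10.31, both below each ESC line and within 1 of the Nanog-GFP line. Cnot1 is not analysed here, because no probe set was assigned to it alone.

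Metabolic genes were read as lists of the respiratory chain and of glycolysis. The median over 29 kept respiratory chain genes was -0.25. Of these, 0 were higher and 2 were lower, against 16.7% and 15.3% over all kept genes. The lower genes were Cox7a1 at 5.29 against 9.47 and 7.55 and Cox6b2 at 7.30 against 10.71 and 9.47. Both are tissue-restricted subunits of cytochrome c oxidase. Of 19 kept glycolysis genes, 3 were higher and 6 lower with a median of 0.14, against 16.7% and 15.3% over all kept genes. Against EBRTcH3 alone 7 were higher, against the Nanog-GFP line alone the median was -0.10, and with the median over probe sets 3 were lower. The glucose transporter Slc2a3 (Glut3) read 8.93 against 13.41 and 13.59, whereas Slc2a1 (Glut1) read 11.49, 11.59 and 11.21 and was counted in neither direction. Eno3, an enolase, was higher at 10.46 against 7.52 and 7.37.

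Interferon and antigen presentation genes had 10 of 23 kept genes higher, 1 lower and a median of 0.85. Over all kept genes 16.7% were higher and 15.3% lower. With the median over probe sets 6 of 20 members of the list were higher. Ifit2 read 8.49 against 3.94 and 4.48 and Gbp2 read 7.42 against 3.41 and 3.07. B2m, the light chain of MHC class I, read 12.51 against 8.63 and 10.67, so that EBRTcH3 lay between the fibroblasts and the Nanog-GFP line. Oas1a was the lower member, at 6.13 against 8.50 and 7.25. Usp18, Ifit1, Mx1 and Oasl2, which interferon induces, did not pass the filter on these arrays.

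**Figure D5:**
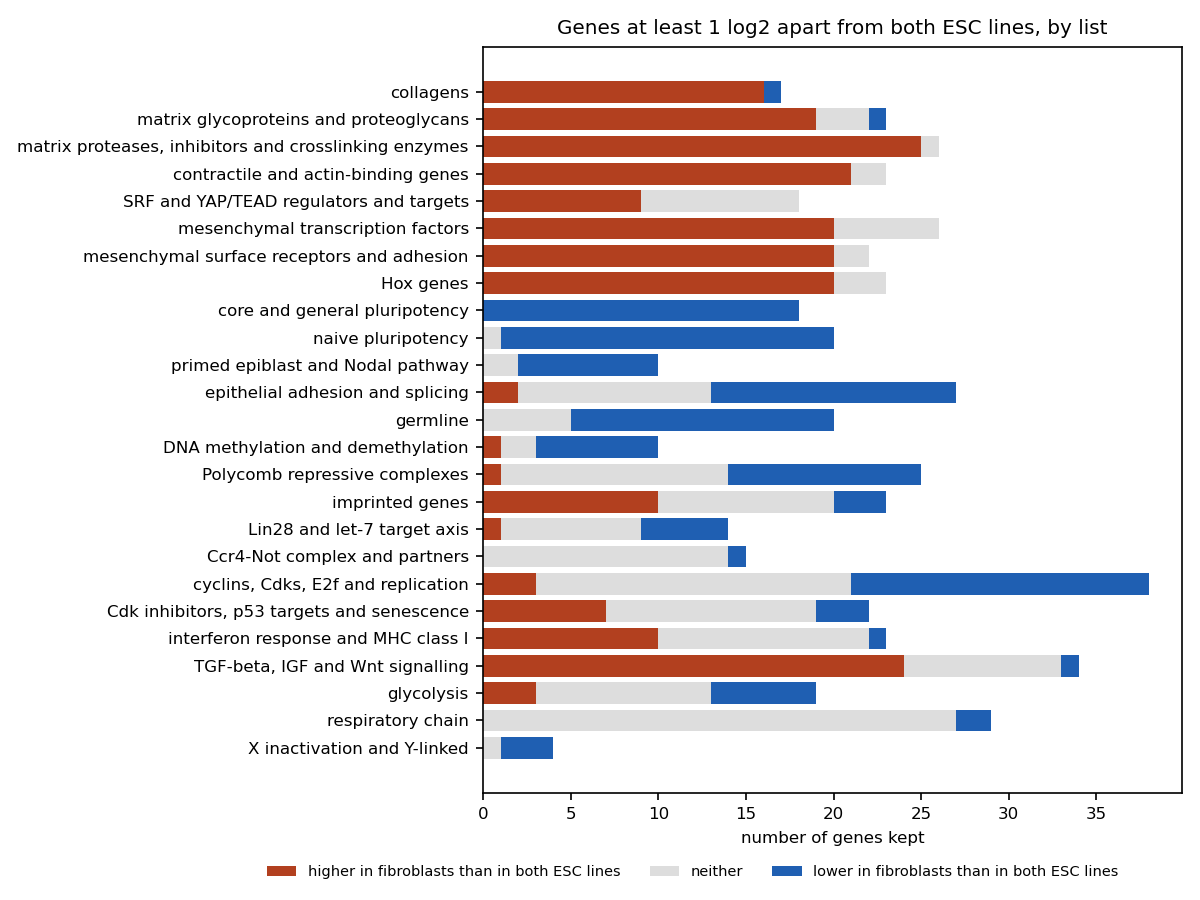
Number of kept genes (horizontal axis) of each list that were higher in fibroblasts than both ESC lines by at least 1 (red), lower by at least 1 (blue) or neither (grey). Collagens, matrix enzymes, contractile genes and Hox genes are mostly red, the core pluripotency list is blue in all 18 genes, and the respiratory chain and Ccr4-Not lists are mostly grey.

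Markers of other cells that the cultures could hold were read as lists, against 16.7% of all kept genes higher and 15.3% lower. Skeletal and cardiac muscle had 9 of 16 genes kept, 6 of them higher in fibroblasts and 1 lower, with a median of 1.96. Acta1 read 10.78 against 6.00 and 5.37, Actc1 read 8.46 against 4.62 and 4.44, and Myog read 5.95 against 4.71 and 3.84. Mylpf, a myosin light chain, was the lower member, at 8.79 against 11.96 and 11.53, and the muscle determination genes Myod1, Myf5 and Myf6 did not pass the filter. The median was 0.81 without the filter on dim genes, and with a filter of 2 of 14 arrays 3 of 7 kept genes were higher with a median of 0.07. Over the 16 genes the median level was 5.71 in fibroblasts, 5.19 in Nanog-GFP ESCs and 4.62 in EBRTcH3.

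Mesothelium and fat markers had 4 of 7 kept genes higher and 0 lower, with a median of 1.67. Fabp4, a fatty acid binding protein, read 7.71 against 3.18 and 3.55, and Upk3b read 8.04 against 4.29 and 5.07. With the filter of 2 of 14 arrays 2 of 4 were higher. Cartilage and bone markers had 6 of 10 kept, 2 higher and 1 lower, with a median of 0.10. Sox9 (7.62 against 3.96 and 4.60) and Col2a1 (8.89 against 7.35 and 5.85) were higher. Alpl, an alkaline phosphatase that ESCs also express, was lower, at 4.55 against 10.81 and 9.52. Macrophage and blood markers had 4 of 12 kept, 1 higher and 1 lower. Lyz2 read 7.97 against 4.74 and 4.79, Cd68 read 5.98 against 8.10 and 8.67, and Ptprc and Adgre1 were dim. Endothelial markers had 6 of 9 kept, 2 higher and 2 lower, with a median of -0.15. Emcn read 6.07 against 2.97 and 3.35 and Kdr read 7.42 against 6.26 and 6.00. Pecam1, which is also in the naive pluripotency list, read 3.70 against 9.15 and 8.83. Tek read 3.99 against 6.96 and 7.78, and Cdh5 was dim. Of the neural markers 1 of 8 kept genes was higher and 2 lower, of the keratinocyte markers 1 of 4 and 1, of the trophoblast and early embryo markers 1 of 6 and 2, and of the endoderm markers 2 of 8 and 1. Their medians were -0.43, -0.26, -0.45 and -0.32. Their part in the matrix, contractile and mesenchymal results was not tested.

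On the ESC side, fibroblast-type genes were read in each line. Nanog-GFP ESCs stood at least 1 above EBRTcH3 for 6 of 23 contractile genes, 4 of 17 collagens and 4 of 22 mesenchymal surface genes, and at least 1 below for 0, 1 and 0 of them. The shares over all kept genes were 9.22% and 7.02%. Among mesenchymal transcription factors the counts were 2 above and 5 below of 26.

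For 30 kept genes the ESC lines lay on both sides of the fibroblasts by at least 1. Hprt, the purine salvage enzyme on the X chromosome, was the furthest, at 10.94 in fibroblasts, 12.34 in Nanog-GFP ESCs and 5.66 in EBRTcH3. The 4 arrays of untreated partial iPSCs and 2i iPSCs read 12.11 to 12.67 for it. Mid1, also X-linked, read 7.55, 5.74 and 11.87. Rgcc read 7.34, 9.12 and 3.52, and Kbtbd11 read 5.51, 4.23 and 9.61. The fibroblast array lay between the lines for each of them.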

How the data were processed

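The authors deposited 1 table of log2 values, 45101 probe sets by 14 arrays, made with RMA and the affy package per the submitters' processing notes. Versions and settings: not given in the sources used here. Sorted values of the 3 compared arrays differed by a median range of 0.016, against 0.318 over all 14 arrays, which fall into blocks of 7. The deposited values were used unchanged. The platform annotation gave 1 gene for 34945 probe sets, several for 932 and none for 9160, besides 64 controls, and 34741 matched RefSeq (GRCm38.p6), used for names, chromosomes and promoter sequences. For each of 18193 genes the probe set brightest on average across the 14 arrays was used. The 12642 genes that reached 5.50, the median of the 3 arrays, on at least 1 of them were kept, so a gene seen on 1 array could pass. No test was made. The 34 lists held 715 symbols, of which 661 had a probe set of their own and 574 were kept.

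Members, lists and rules were chosen with earlier results of these data known. The genes named are the 15 furthest in each direction, the 4 markers, up to 4 counted members of a list in each direction, well-known members of a pathway, and the 4 genes with the ESC lines furthest apart on both sides of the fibroblasts. Members of a list that were dim, lay near the threshold, were given as exceptions or differed between the ESC lines were named after their values were seen. The counting rule was run on simulated data with shifts well above the threshold and noise well below it. That run checks the code only and does not measure error in the fibroblast array. The closing section gives the alternatives tried (probe set choice, filter, centring, quantile normalization, a floor, leaving out an ESC line). Python 3.11.15, numpy 2.4.6, pandas 2.3.3 and matplotlib 3.10.9 were used.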

Additional observations from a re-analysis of the deposited data

How the results depend on the processing

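With 1 fibroblast array the precision is limited by the number of arrays, and no alternative checks that arm. Counts of higher and lower genes were within 1.5 times of 2116 and 1936 under every alternative. They ranged from 1789 (median over probe sets) to 2219 (no filter on dim genes) for higher and from 1738 to 2170 (arrays centred on their medians) for lower with both ESC lines. Without the Nanog-GFP line 2799 were higher and 2709 lower, and without EBRTcH3 2617 and 2720. Higher genes made up 52.2% of those counted and 47.6% with arrays centred on their medians, which moved the median difference from -0.10 to -0.20. Only the median over probe sets turned counted genes, Cuedc1 and Zfp451, to the opposite direction. No list median of at least 1 changed sign, but counts or medians of many lists moved by over 1.5 times under some settings. Among them were the SRF and YAP, cell cycle inhibitor, Ccr4-Not, glycolysis, interferon, mesenchymal surface, Lin28 and other-cell lists. The Polycomb, respiratory chain, epithelial, DNA methylation, matrix glycoprotein, TGF-beta and X and Y lists were also among them, with small counts that moved. Of 151 named genes that were counted, Cbx7, Mbd2, Trp53inp1, Aldoc, Des and Elavl3 missed the threshold with the median over probe sets, Hoxa9 and Uty with the probe set brightest over the 3 arrays (0.60 and -0.33), and Krt14 and Krt18 with arrays centred on their medians, and Krt18 also after quantile normalization. Uty, Tsix, Xist, Ascl2 and Osmr were also lost under 1 or more settings. The filter of 2 of 14 arrays removed genes seen mainly in fibroblasts, such as Cnn1, Dkk2, Hoxc8, Hoxc10 and Hoxa11. No paired analysis was possible because the labels give no replicate numbers and no test was made.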
